A study of Diospyros kaki with 21 samples.

Results

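The comparison concerns untreated 'Jingmianshi' persimmon (Diospyros kaki) fruit in storage: 3 libraries of control flesh at 4 d (CK 4 d, replicates A, B and C) against 3 libraries of flesh at 0 d (CK 0 d, A, B and C), 6 of the 21 RNA-seq libraries of the series. The fruit at 0 d were sampled as the experiment began. The control fruit were closed in air-tight containers with air for 1 d, as a counterpart to fruit held in high CO2 with or without the ethylene receptor blocker 1-methylcyclopropene (1-MCP), and were then kept in air, so that CK 4 d stands for 1 d in a closed container followed by 3 d in open air. All libraries are of flesh from a single cultivar, and no genetic modification or chemical was applied to either group compared here. Storage time and the stay in the container cannot be told apart in this comparison.

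After harvest, a climacteric fruit such as persimmon goes on ripening: ethylene made from ACC by ACC oxidase signals through ERF transcription factors, pectin and xyloglucan in the cell wall are taken apart by esterases, hydrolases and transglycosylases, and carotenoids accumulate. Detached fruit also lose water and live on their stored carbohydrate, and the flesh of astringent cultivars holds condensed tannins made by the flavonoid pathway. Fruit flesh is rich in transcripts of pathogenesis-related (PR) proteins, which include chitinases, glucanases and thaumatin-like proteins that act on fungal walls and membranes.

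Without a reference genome, the authors assembled the reads into 261970 unigenes, of which 218393 had at least 1 count in the 6 libraries and 62794 had enough counts to be tested. Total counts per library ranged from 15782292 to 24943140. The level of a unigene is given as FPKM, the deposited count scaled to length and depth, and its difference as the log2 fold change of 4 d over 0 d from edgeR, positive where CK 4 d was higher. A unigene was taken as up- or down-regulated at an adjusted p (Benjamini-Hochberg) below 0.05, and as a DEG where the change was also above 5-fold. A single endochitinase unigene (Cluster-16487.111793) took 15.6% to 18.1% of all counts in the 6 libraries. The labelled tissue was checked by 3 lists. Enzymes of flavonoids and tannins were present. Their 141 unigenes matched to seed plants, of which 49 were tested, took 0.0668% ± 0.00397 of the counts at 0 d (SD, n = 3). Photosystem and chlorophyll-binding proteins took 0.0397% ± 0.00179 at 0 d and 0.0459% ± 0.00162 at 4 d. Of 26 unigenes matched to seed storage proteins, 7 had enough counts to be tested. All 26 together took 0.00628% ± 0.000245 at 0 d and 0.00669% ± 0.000141 at 4 d. Persimmon is polyploid and the unigenes are fragments, so several unigenes of a family may be copies, alleles or pieces of the same gene that share reads, and their counts are not independent.

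Over all organisms, 1732 unigenes (2.76% of those tested) were up-regulated at 4 d and 1192 (1.9%) were down-regulated, together 4.66%. DEGs were 860 up (1.37%) and 188 down (0.299%). The libraries of the groups did not overlap in FPKM for 26.4% of the unigenes tested. Before adjustment 10880 unigenes had a p below 0.05, and after it no value was lower than 0.00269. The number of calls was lower with any single library left out. With 1 library left out, edgeR called 697 up and 429 down without CK 0 d A, 529 and 287 without CK 0 d B, and 611 and 347 without CK 0 d C. It called 113 and 72 without CK 4 d A, 161 and 127 without CK 4 d B, and 320 and 263 without CK 4 d C. Each of these fits was filtered anew, with 68122 to 70121 unigenes tested. At an unadjusted p below 0.05 they held 9157 to 10698 unigenes, against 10880 with all 6 libraries. A fit with fewer libraries also has less power, so lost calls do not by themselves show dependence on a particular library. DESeq2 called 3926 up and 3384 down, among them all 2924 unigenes called by edgeR. Every one of the 2924 kept its direction with each library left out, but 159 kept the call in all 6 of these fits and 1518 in none. Of the 214 called unigenes that were chosen for naming, 36 kept it in all 6, and those described below as robust are among them.

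The up-regulated unigenes divided sharply by the organism of their database hit. The NR organism was not a green plant for 1245 unigenes, mostly oomycetes, other stramenopiles and red algae. It was a fungus or an animal for none of the 1245. Of these, 76 were tested, and 43 of the 76 were up-regulated (56.6%, against 2.76% over all unigenes), 42 of them as DEGs. None was down-regulated by edgeR or by DESeq2, and none was lower at an unadjusted p below 0.05, while 54 were higher at that level. A unigene rare at 0 d could reach the counts needed for testing through the 4 d libraries alone. These numbers therefore depend in part on the filter for counts. All 1245 unigenes, tested or not, entered the share of all counts. This share was 0.0106%, 0.00757% and 0.00518% in CK 0 d A, B and C, and 0.0292%, 0.0247% and 0.0285% in CK 4 d A, B and C. The groups did not overlap. The mean share rose 3.53-fold, a difference of 0.0197 percentage points, with p = 0.1 in a two-sided exact permutation test, which is the smallest p that 3 against 3 libraries can give. At 1 d, control fruit had a share of 0.00509% ± 0.000422 (SD, n = 3). In the libraries of treated fruit the share ranged from 0.00504% to 0.0541%. Its mean was 0.045% at 1 d and 0.00788% at 4 d with CO2, and 0.0223% and 0.0221% with CO2 and 1-MCP.

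Where the NR organism was a green plant, 52517 unigenes were tested, and 1438 (2.74%) were up- and 1089 (2.07%) down-regulated, together 4.81%, with 677 DEGs up (1.29%) and 166 down (0.316%). This set was not uniform. After its values had been seen it was divided further, by whether the best Swiss-Prot entry belonged to a fungus, by the cork oak Quercus suber as NR organism, and by seedless plants against seed plants. Unigenes with cork oak as NR organism and a fungal Swiss-Prot entry stood apart from the rest: 322 of 414 tested (77.8%) were up-regulated, with a median log2 fold change of 4.93. Of 3205 such unigenes only these 414 were tested, so the limit of the filter given above applies here and to the groups below. The share of all counts of the 3205 was 0.0133%, 0.0146% and 0.0175% at 0 d, 0.00993%, 0.013% and 0.0178% at 1 d, and 0.125%, 0.125% and 0.148% at 4 d. The share was thus low in every library at 0 d and at 1 d and high in every library at 4 d, an 8.75-fold rise from 0 d to 4 d. In treated fruit it ranged from 0.0155% to 0.196%. Its mean was 0.177% at 1 d and 0.0242% at 4 d with CO2, and 0.085% and 0.069% with CO2 and 1-MCP. The means of treated fruit were thus not higher at 4 d than at 1 d. Of 1109 tested unigenes with a fungal Swiss-Prot entry but another NR organism, 147 (13.3%) were up-regulated. The share of all counts of this class was 0.935%, 0.756% and 0.831% at 0 d and 0.876%, 0.835% and 0.943% at 4 d. These values overlapped between the groups, unlike those of the cork oak class. Of the 69 tested with a seedless plant as NR organism, 26 were up-regulated (37.7%). The unigenes with a non-plant NR organism or a fungal Swiss-Prot entry were 2.55% of those tested, 29.6% of the up-regulated unigenes and 57.9% of the DEGs up. Whether these transcripts came from another organism on or in the fruit was not tested, and the annotation alone cannot settle it.

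**Figure D1:**
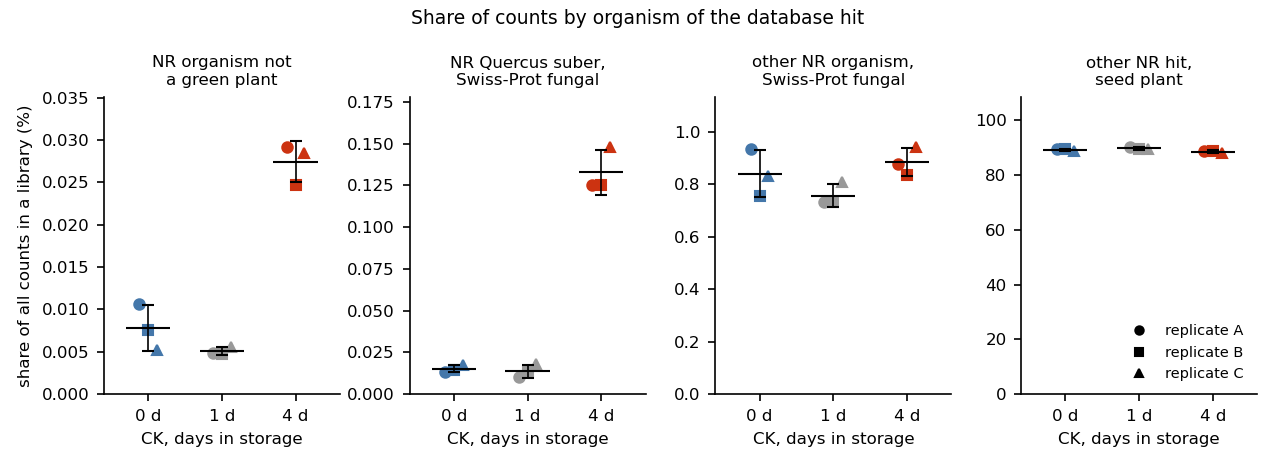
Share of all counts in each control library (y axis, percent, a separate scale for each panel) at 0, 1 and 4 d in storage (x axis) for unigenes grouped by the organism of their database hit; circles, squares and triangles are replicates A, B and C, and the bar and whiskers are the mean and SD. The 4 d libraries lie above all others in the first and second panels, at 0.0247% to 0.0292% and 0.125% to 0.148%, while the seed-plant share was 89.2% at 0 d and 88.6% at 4 d.

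Among the members at higher levels at 4 d were proteins of translation and of the stress response. A homologue of the yeast small heat shock protein HSP12, a membrane stress protein (Cluster-16487.212664, NR organism Quercus suber), had FPKM of 0, 2.07 and 0 at 0 d, 5.92, 1.97 and 12.5 at 1 d, and 228, 183 and 247 at 4 d. It rested on 1 count in all at 0 d and 393 at 4 d, a ratio of 370 with a 95% counting interval from 66 to 14645. The call was robust. Named after its values were seen, an elongation factor 1-alpha (Cluster-16487.35841, fungal in Swiss-Prot), which brings aminoacyl-tRNA to the ribosome, went from 0.61, 0.54 and 0.87 to 19.6, 20.9 and 21.2 FPKM, a log2 fold change of 4.84 ± 0.19 (SE, adjusted p = 0.00269), and it was robust. The acidic stalk protein P2 of the large ribosomal subunit (Cluster-16487.20419) went from 0.44, 1.38 and 1.02 to 31.6, 34.9 and 34.4 FPKM and was robust as well. In each of these the 4 d libraries lay far above the others. An SDO1-like protein (Cluster-34473.0), named for a factor of ribosome maturation, rose from 2 counts to 525, a ratio of 247 with a 95% counting interval from 68.0 to 2045.

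Among unigenes with a non-plant NR organism, the DEGs with the highest mean level were ribosomal proteins. The 40S protein S28 (Cluster-16487.14298, red alga Cyanidioschyzon) had FPKM of 3.44, 1.53 and 1.47 at 0 d and 22.9, 23.1 and 27.8 at 4 d, a log2 fold change of 3.48 ± 0.43. The 40S protein S30 (Cluster-16487.214062, haptophyte Chrysochromulina) changed by 3.4 ± 0.47 and the 60S protein L37A (Cluster-16487.5873) by 2.85 ± 0.52. Named after its values were seen, an alcohol dehydrogenase with an oomycete as NR organism (Cluster-16487.206541, Phytophthora sojae) had 3 counts in all at 0 d and 323 at 4 d, a ratio of 101 with a 95% counting interval from 34.4 to 494. Cytosolic ribosomal proteins as a family showed the same divide. Of 135 tested with a fungal Swiss-Prot entry, 111 were up- and 7 down-regulated, with a median log2 fold change of 4.47, and all 13 with a non-plant NR organism were up-regulated. Of 368 with a seed plant as NR organism, 15 were up-regulated, with a median of 0.20 over the 368. Among the 15, 6 were DEGs, with a log2 fold change of up to 6.48, so this class also held large rises. All these counts are of tested unigenes, with the limit of the filter given above.

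**Figure D2:**
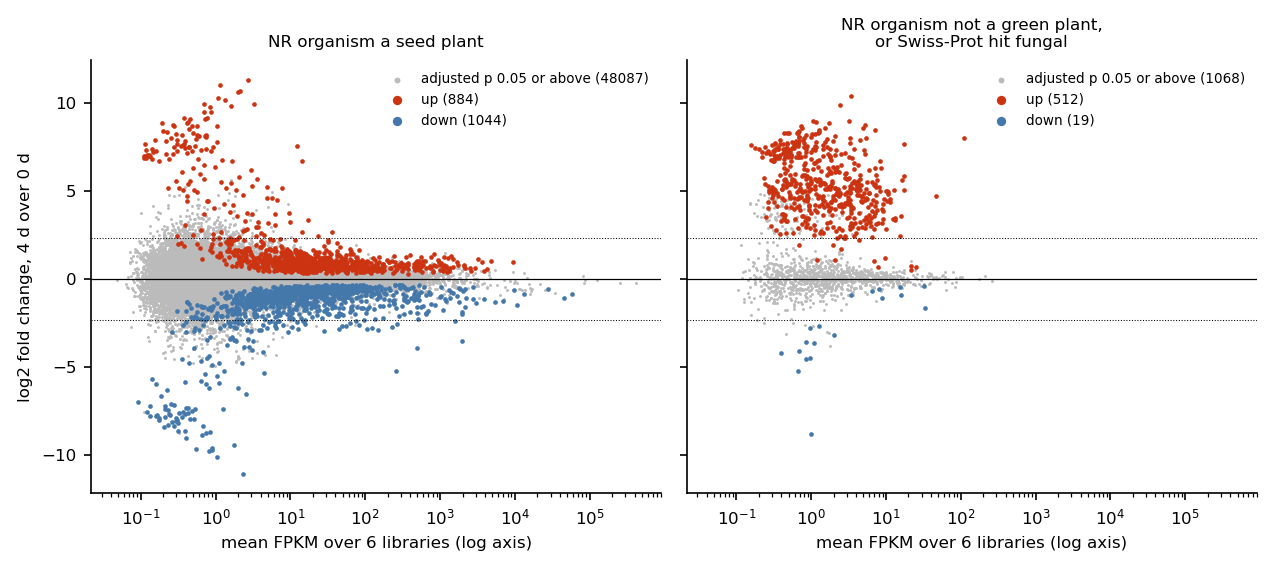
Log2 fold change of 4 d over 0 d (y axis) against the mean FPKM over the 6 libraries (x axis, log scale) for unigenes with a seed plant as NR organism (left) and for those with a non-plant NR organism or a fungal Swiss-Prot entry (right); red and blue points are up- and down-regulated unigenes, grey points did not pass the test, and dotted lines mark the 5-fold threshold. On the left 884 up and 1044 down lie on both sides of 0, and on the right 512 up and 19 down are separated.

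The rest of the results concern the unigenes with a seed plant as NR organism, cork oak and fungal Swiss-Prot entries left out. Of 50015 tested, 884 (1.77%) were up-regulated and 1044 (2.09%) down-regulated, together 3.85%. DEGs were 147 up (0.294%) and 148 down (0.296%). The median change of the up-regulated unigenes was 0.95 on the log2 scale and that of the down-regulated ones -1.05, and the groups did not overlap in 25.9% of all the unigenes tested. Large changes were mostly found at low levels. Of the 147 DEGs up, 74 were listed at 0 in one of the groups and 13 reached a mean of 10 FPKM in either group; of the 148 DEGs down, these numbers were 49 and 30. With 1 library left out, the calls fell to between 50 and 335 up and between 66 and 377 down, lowest without CK 4 d A in both directions, and 48 up and 51 down were kept in all 6 fits. DESeq2 called 2627 up and 2950 down. Members were grouped into 44 functional lists, and 43 of them held at least 1 called unigene. Each list is to be read against the 1.77% up and 2.09% down over all seed-plant unigenes. Groups counted below by KEGG entry, Pfam domain or NR name were picked from the counts of calls, also where this is not repeated. The calls in the lists numbered 337 with all libraries, between 108 and 158 with a 0 d library left out, and 23, 38 and 74 with CK 4 d A, B and C left out. Without CK 4 d A, 29 lists held no call. In bulk flesh, fewer cells of a type and less RNA per cell cannot be told apart.

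**Figure D3:**
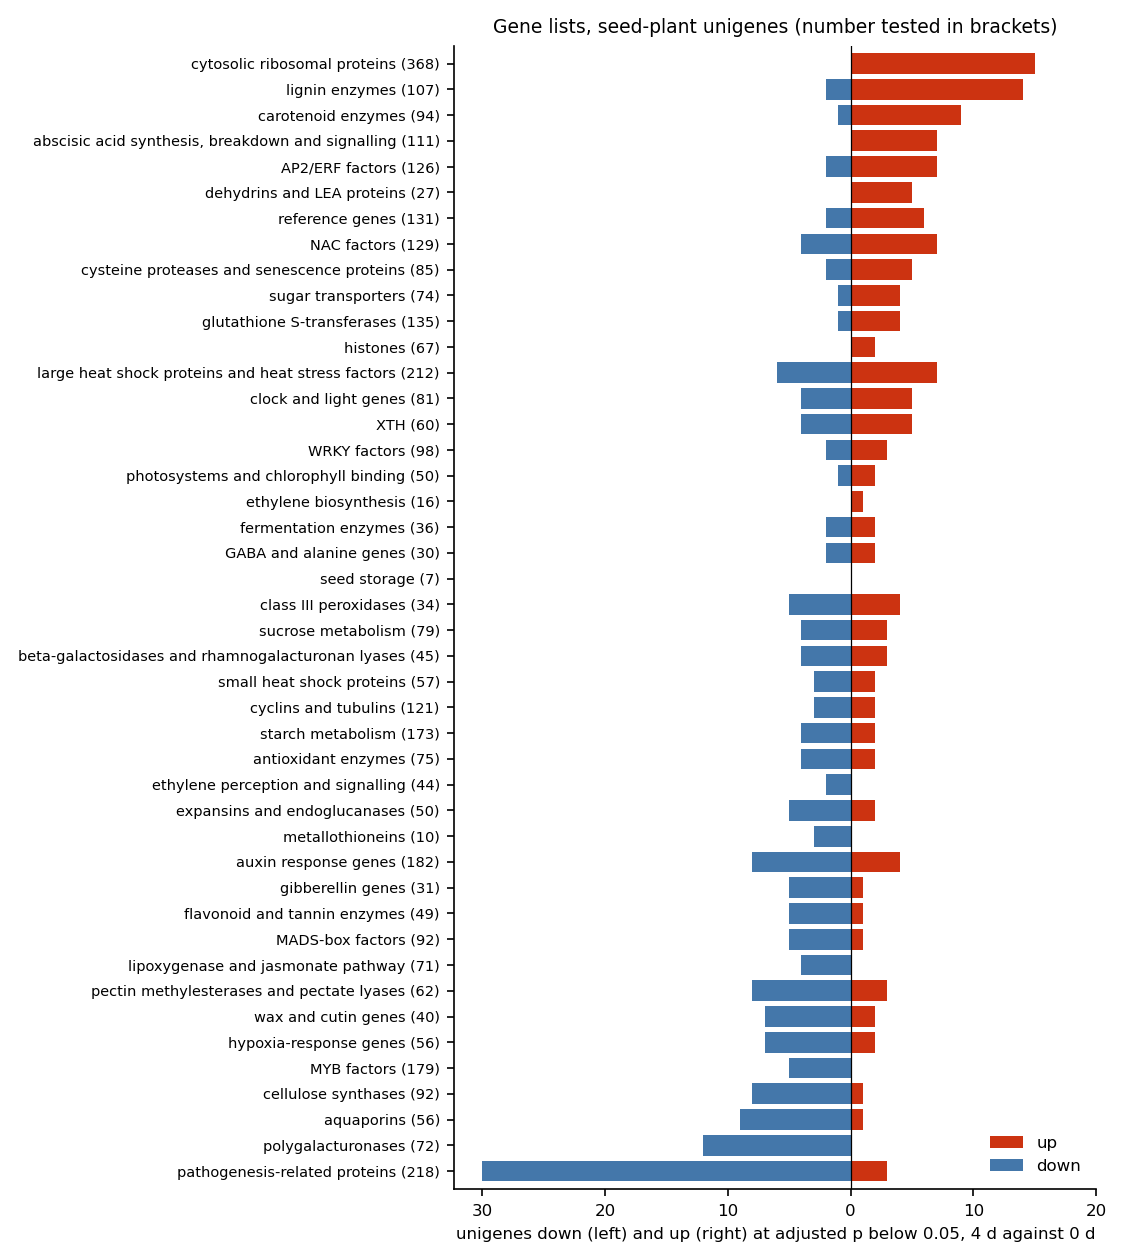
Number of seed-plant unigenes up-regulated (red, right) and down-regulated (blue, left) at 4 d against 0 d (x axis) in each of the 44 gene lists (y axis, number tested in brackets). The list of pathogenesis-related proteins had 30 down and 3 up and polygalacturonases had 12 down, whereas cytosolic ribosomal proteins had 15 up and lignin enzymes 14 up and 2 down.

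Defence proteins gave more decreases by number than any other of the 44 lists, though not by share, and only with all 6 libraries in the fit was the number this high. Of 218 tested members of the pathogenesis-related list, 30 were down- and 3 up-regulated, with a median log2 fold change of -0.27 against 0.002 over all seed-plant unigenes. The list's share of all counts went from 23.8% ± 1.59 at 0 d to 26.6% at 1 d and 20.8% ± 0.188 at 4 d (SD, n = 3). Most of this share was the endochitinase unigene Cluster-16487.111793. In replicates A, B and C it took 18.1%, 18% and 16.3% at 0 d, 21.4%, 19.6% and 18.9% at 1 d, and 15.6%, 15.8% and 15.8% at 4 d. DESeq2 called 57 down and 5 up. The number down was 18, 12 and 22 with CK 0 d A, B and C left out, and 2, 4 and 7 with CK 4 d A, B and C left out. The list's member with the largest decrease was an endo-1,3-beta-glucosidase (Cluster-16487.116177), which cuts the beta-glucan of fungal walls. It had FPKM of 909, 409 and 196 at 0 d, 352, 86.4 and 397 at 1 d, and 15.4, 14.1 and 13.8 at 4 d, a log2 fold change of -5.22 ± 0.64 (SE, adjusted p = 0.0137, edgeR). The 4 d libraries were alike and low, while those of 0 d differed among themselves.

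PR-1 proteins are secreted antimicrobial proteins. Of 17 unigenes with the KEGG entry for PR-1, 8 were down- and 1 up-regulated. The most abundant of those that fell by more than 5-fold (Cluster-16487.110805, chosen after its values were seen) had FPKM of 6064, 2443 and 2384 at 0 d and 283, 355 and 372 at 4 d, a change of -3.5 ± 0.46. Replicate A was the highest library at 0 d for this PR-1, for the glucanase above and for chitinase A3, and the call on the PR-1 was kept in 3 of 6 fits with a library left out. A shorter PR-1 unigene (Cluster-16487.116353) changed by -3.92 ± 0.78. A PRB1-3-like protein of the same family (Cluster-16487.117279) went the other way, from 16.4, 18.9 and 21.6 to 48.6, 51.9 and 54.7 FPKM (1.39 ± 0.13), and was robust.

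Chitinases, which cut the chitin of fungal walls, had 9 of 29 members down-regulated, by -1.76 to -2.74 on the log2 scale. Chitinase A3 (Cluster-16487.91028) had FPKM of 668, 316 and 215 at 0 d, 1224, 212 and 581 at 1 d, and 73.4, 57.1 and 55.4 at 4 d (-2.74 ± 0.45). The chitinase with the highest FPKM (Cluster-16487.111174), at 516356, 387520 and 405823 at 0 d and 369861, 375859 and 403468 at 4 d, overlapped between the groups and did not pass the test (-0.21 ± 0.14, adjusted p = 0.536). Thaumatin-like proteins, which act on fungal membranes, were among the most abundant transcripts that fell. The leading one (Cluster-16487.111166) had 84982, 74246 and 61130 FPKM at 0 d and 46207, 43554 and 36619 at 4 d, a change of -0.83 ± 0.15, and all 4 d libraries lay below all 0 d libraries. The related PR protein R (Cluster-16487.111163) changed by -1.11 ± 0.2 and a form of it (Cluster-16487.111587) by -0.59 ± 0.12. The antimicrobial peptide snakin-1 (Cluster-16487.104163) went from 48.7, 98.2 and 91.4 to 6.85, 13.4 and 13.3 FPKM (-2.82 ± 0.38). Of 49 unigenes with the Bet v I domain of PR-10 proteins, 10 were down-regulated.

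The list of wax and cutin genes, which holds lipid transfer proteins, had 7 of 40 down- and 2 up-regulated. A non-specific lipid transfer protein (Cluster-16487.108593) had 903, 515 and 462 FPKM at 0 d and 152, 195 and 186 at 4 d (-1.89 ± 0.3), and another (Cluster-16487.88343) changed by -2.81 ± 0.49. The 2 that rose were 3-ketoacyl-CoA synthase-type enzymes of fatty acid elongation, which make the long chains of wax (Cluster-16487.99787, 0.76 ± 0.13; Cluster-16487.122299, 0.7 ± 0.07).

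Pectin-modifying enzymes gave mostly decreases. Polygalacturonases, which cut the galacturonan backbone of pectin, had 12 of 72 members down-regulated, with a median of -0.39. No member was up-regulated by edgeR, 4 were higher at an unadjusted p below 0.05, and DESeq2 called 1 up and 15 down. With a library left out, between 1 and 8 were down-regulated, the lowest number without CK 4 d A. The most abundant (Cluster-16487.117552) had FPKM of 147, 157 and 153 at 0 d, 44.8, 111 and 75.3 at 1 d, and 90.2, 97.2 and 97.8 at 4 d (-0.75 ± 0.07, adjusted p = 0.00714). The non-catalytic beta subunit, which anchors the enzyme in the wall (Cluster-16487.130652), went from 122, 169 and 201 at 0 d to 34.4, 74.7 and 46.5 at 1 d and 41.3, 43 and 48.5 at 4 d (-1.96 ± 0.16). For both, the level at 1 d was already below every library of 0 d.

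Pectinesterases remove methyl groups from pectin and open it to polygalacturonase. Together with pectate lyases, 8 of 62 were down- and 3 up-regulated, and 6 of the 23 with the KEGG entry for pectinesterase fell. A pectinesterase (Cluster-16487.111604) had FPKM of 3644, 4771 and 4608 at 0 d, 2591, 4877 and 3208 at 1 d, and 1491, 1861 and 1949 at 4 d. It changed by -1.36 ± 0.14 (adjusted p = 0.00905) and was robust. Pectinesterase 8 (Cluster-16487.109743) changed by -1.27 ± 0.2. A pectate lyase 8 (Cluster-16487.85547), an enzyme that cuts pectin by elimination, rose from 243, 137 and 217 to 555, 486 and 438 FPKM (1.24 ± 0.25), a call lost whichever library was left out.

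Pectin acetylesterases, which remove acetyl groups, had 10 of 42 members down-regulated by their Pfam domain, a group picked from the counts of calls. One of them (Cluster-16487.117409), named after its values were seen, went from 696, 667 and 936 FPKM at 0 d to 276, 415 and 296 at 1 d and 189, 217 and 224 at 4 d (-1.92 ± 0.15) and was robust. Of 55 unigenes with the domain of invertase and pectinesterase inhibitors but no pectinesterase domain, 17 were down- and 2 up-regulated. The summed FPKM of this group was 45069, 45832 and 42702 at 0 d and 35443, 45343 and 35458 at 4 d, and these libraries overlapped. An inhibitor-domain protein (Cluster-16487.110597) had 3059, 3321 and 3425 FPKM at 0 d and 1060, 1121 and 1137 at 4 d (-1.61 ± 0.07, adjusted p = 0.00269). Named after its values were seen, this unigene was robust, and no library of one group came near those of the other.

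Xyloglucan endotransglucosylase/hydrolases (XTH), which cut and rejoin the xyloglucan between cellulose fibres, moved in both directions, with 5 of 60 up- and 4 down-regulated. An XTH (Cluster-16487.93331) had FPKM of 52.1, 57.1 and 40.5 at 0 d, 29.8, 37.3 and 34.2 at 1 d, and 6.19, 7.23 and 7.14 at 4 d (-2.94 ± 0.17, adjusted p = 0.00416). Another (Cluster-16487.125898) had 31.9, 31.2 and 30.8 at 0 d, 40.9, 32.6 and 38.8 at 1 d, and 105, 99.5 and 88.8 at 4 d (1.57 ± 0.1). Both were robust, and in both the groups were far apart in opposite directions. XTH 5 rose (Cluster-16487.148132, 1.12 ± 0.19) and XTH 6 fell (Cluster-16487.180837, -2.72 ± 0.31).

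Among the other wall proteins, the list of expansins, which loosen the wall, and endoglucanases had 2 of 50 up- and 5 down-regulated. Expansin-A15 (Cluster-16487.91495) rose by 0.7 ± 0.14 and expansin-A8 (Cluster-16487.119705) by 1.51 ± 0.14, whereas endoglucanase 6 (Cluster-16487.110691) went from 745, 857 and 891 to 441, 444 and 512 FPKM (-0.91 ± 0.08). Beta-galactosidases and rhamnogalacturonan lyases, which trim the side chains and backbone of pectin, had 3 of 45 up- and 4 down-regulated. One beta-galactosidase (Cluster-16487.108441) had 327, 305 and 398 FPKM at 0 d, 1378, 766 and 1077 at 1 d, and 613, 550 and 501 at 4 d, so that its 1 d libraries were the highest of the 9. Its change from 0 d to 4 d was 0.65 ± 0.12. Another (Cluster-16487.115410) fell from 10.5, 12 and 15 to 3.47, 3.44 and 3.68 FPKM (-1.9 ± 0.12) and was robust. Cellulose synthases had 8 of 92 down- and 1 up-regulated, the catalytic subunits 3 (Cluster-16487.100777) and 1 (Cluster-16487.108108) by -0.62 ± 0.08 and -0.52 ± 0.06.

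The 36.4 kDa proline-rich proteins, named after a tomato protein, were picked from the counts of calls. By NR or Swiss-Prot name 16 unigenes were tested, 13 were down-regulated by -1.05 to -2.09, and the other 3 had negative values that did not pass. Their summed FPKM was 26652, 29047 and 31737 at 0 d, 12332, 31470 and 22342 at 1 d, and 12358, 12182 and 14889 at 4 d. The libraries of 1 d spanned the levels of the other groups, while those of 0 d and 4 d were separate. One of them (Cluster-16487.110003), named after its values were seen, went from 2370, 3379 and 3319 to 984, 996 and 903 FPKM (-1.9 ± 0.15) and was robust.

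**Figure D4:**
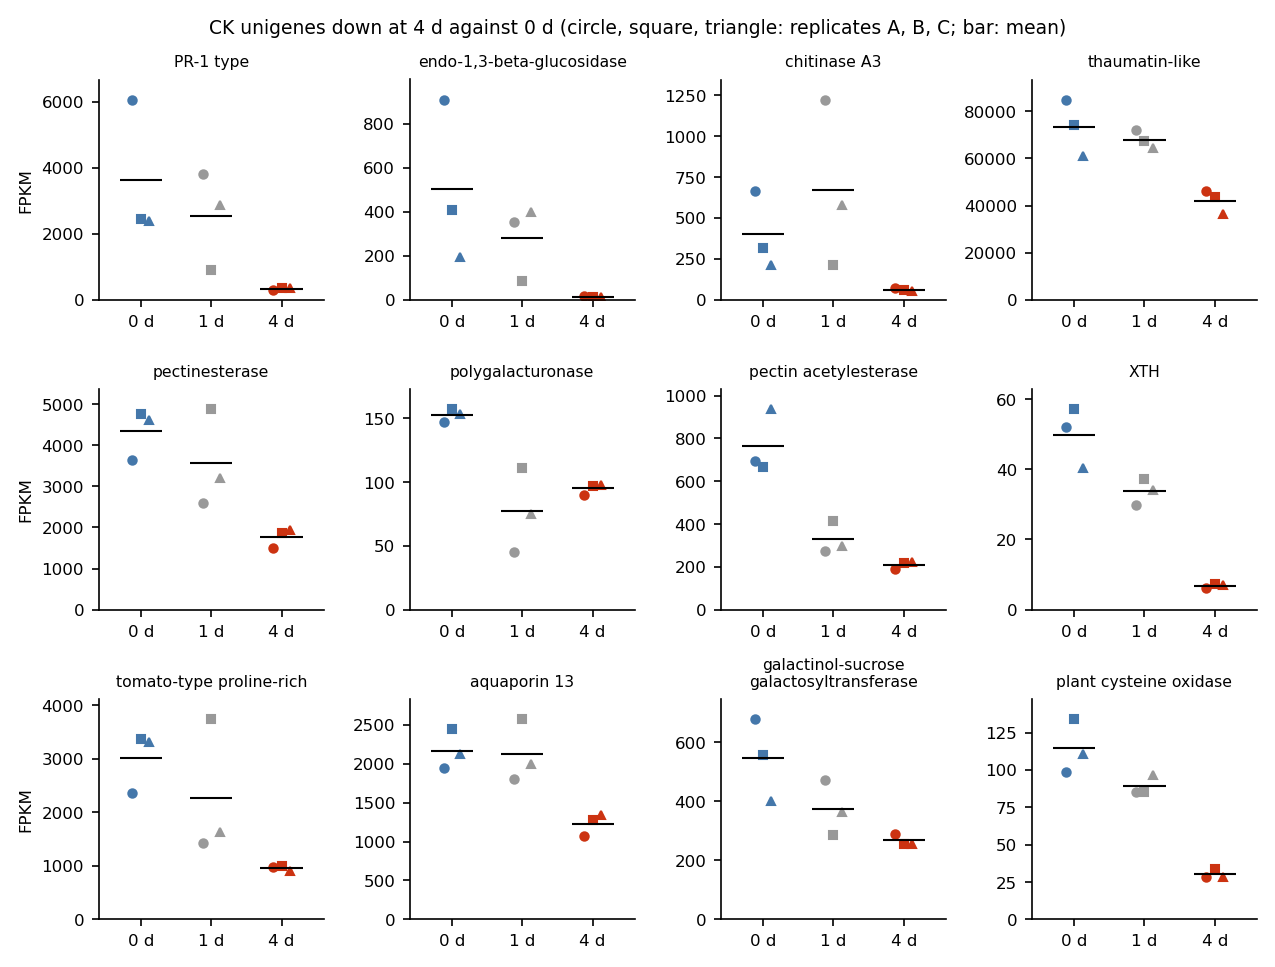
FPKM (y axis, a separate scale for each panel, from 0) of 12 down-regulated unigenes in each control library at 0, 1 and 4 d in storage (x axis); circles, squares and triangles are replicates A, B and C and bars are means. In each panel the 4 d libraries lie below every 0 d library, as for the XTH at 6.19 to 7.23 against 40.5 to 57.1, and the scatter at 0 d and 1 d is widest for the glucosidase, the PR-1 protein and chitinase A3.

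Aquaporins, the water channels of plasma and vacuolar membranes, had 9 of 56 down- and 1 up-regulated, and 12 and 2 of 65 over all green-plant entries. The share of counts of the list was 0.598% ± 0.0329 at 0 d, 0.693% at 1 d and 0.599% ± 0.0377 at 4 d (SD, n = 3). Aquaporin protein 13 (Cluster-16487.112720) went from 1940, 2439 and 2120 FPKM at 0 d to 1067, 1273 and 1346 at 4 d (-0.95 ± 0.16), a call lost with each library left out. A vacuolar TIP1-1 (Cluster-16487.78639) rose from 27, 20.4 and 18.1 at 0 d to 141, 49.2 and 66.2 at 1 d and 68.6, 64.7 and 52.4 at 4 d (1.43 ± 0.2). Proton pumps of the H+-ATPase entry, which energize the plasma membrane and were picked from the counts of calls, had 6 of 24 down- and 1 up-regulated.

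Sucrose-handling enzymes moved in both directions. Sucrose metabolism had 3 of 79 up- and 4 down-regulated. Sucrose synthase (Cluster-16487.117478), which splits sucrose reversibly, fell from 47.2, 55.4 and 50.8 to 23.8, 20.6 and 24 FPKM (-1.24 ± 0.08) and was robust, and an insoluble invertase (Cluster-16487.110020) fell by 0.91 on the log2 scale. The vacuolar invertases INV15 (Cluster-16487.110206) and INV9 (Cluster-16487.136269), which split the sucrose stored in the vacuole, rose by 1.54 ± 0.17 and 1.41 ± 0.23. INV15 had 8.6, 13.8 and 10 FPKM at 0 d, 33.5, 33.3 and 35.4 at 1 d and 31.1, 33.4 and 35.1 at 4 d, so its 1 d and 4 d libraries lay together above those of 0 d. Starch metabolism had 2 of 173 up- (1.16%) and 4 down-regulated (2.31%), near the 1.77% and 2.09% over all seed-plant unigenes. Among those down was the most abundant alpha-amylase (Cluster-16487.108373, -0.43 ± 0.07). Sugar transporters had 4 of 74 up- and 1 down-regulated, with sucrose transporter 6 (Cluster-16487.78769) at 0.97 ± 0.14.

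Raffinose synthases, which build raffinose sugars from galactinol and sucrose, were noticed in the counts of calls with 13 of 29 members down-regulated and a median of -0.92. Their summed FPKM was 2997, 2399 and 1891 at 0 d and 1310, 1155 and 1195 at 4 d, with no overlap. One of them (Cluster-16487.108578), named after its values were seen, went from 679, 559 and 403 to 291, 256 and 256 (-1.11 ± 0.21). GDP-L-galactose phosphorylase, the committed step of ascorbate synthesis, was also picked from the counts of calls, with 7 of 14 members down-regulated. The summed FPKM of its members was 1956, 2450 and 2319 at 0 d, 1281, 1751 and 1316 at 1 d, and 1248, 1255 and 1326 at 4 d. Here the 1 d libraries were all below those of 0 d.

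In the hypoxia list 7 of 56 were down- and 2 up-regulated. Plant cysteine oxidases, which use oxygen to mark group VII ERF factors for breakdown, made up 6 of the 7. One (Cluster-16487.115570) had FPKM of 98.9, 134 and 111 at 0 d, 85.5, 85.3 and 96.6 at 1 d, and 28.1, 33.8 and 28.3 at 4 d (-1.98 ± 0.15, adjusted p = 0.00568), and was robust. The decrease of this oxidase lay mainly between 1 d and 4 d. A unigene annotated as hemoglobin (Cluster-16487.74041), in plants a scavenger of nitric oxide under low oxygen, had 2.08, 2.92 and 2.29 FPKM at 0 d, 8.39, 7.22 and 6.54 at 1 d and 4.65, 4.53 and 4.04 at 4 d (0.78 ± 0.16). Fermentation enzymes had 2 of 36 up- and 2 down-regulated, all of them pyruvate decarboxylases, which make acetaldehyde: the up-regulated ones (Cluster-16487.121253 and Cluster-16487.99663) changed by 0.65 ± 0.12 and 0.75 ± 0.08 and the down-regulated ones (Cluster-16487.103930 and Cluster-16487.103931) by -1.19 ± 0.15 and -1.01 ± 0.16.

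The ACC oxidases of ethylene synthesis had their highest levels at 1 d. The most abundant ACC oxidase (Cluster-16487.134131), the last enzyme of ethylene synthesis, had FPKM of 38.2, 42.6 and 58.9 at 0 d, 230, 170 and 158 at 1 d, and 77.9, 136 and 131 at 4 d. The 4 d libraries were above those of 0 d and below those of 1 d, but the difference from 0 d did not pass the test (1.28 ± 0.31, adjusted p = 0.0852). A second ACC oxidase (Cluster-16487.161351) had 18.6, 21 and 20.4 at 0 d, 56.9, 69.3 and 59.1 at 1 d, and 31.6, 29.7 and 28.6 at 4 d and was the only one of 16 tested members of the list to be up-regulated by edgeR (0.51 ± 0.08, adjusted p = 0.0245), where DESeq2 called 4. It lost the call with any library left out. In perception and signalling 2 of 44 were down-regulated, ethylene receptor 3 (Cluster-16487.122272, -0.84 ± 0.13), a negative regulator of the response, and an EIN3-binding F-box protein (Cluster-16487.113527, -0.53 ± 0.08), which removes EIN3 factors. The factor EIL1 itself (Cluster-16487.107460) did not pass (0.14 ± 0.08, adjusted p = 0.49).

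AP2/ERF factors had 7 of 126 up- and 2 down-regulated, against a background of 1.77% up, and DESeq2 called 20 up and 4 down. Ethylene response factor 26 (Cluster-16487.90127) had FPKM of 34.7, 41.6 and 39.1 at 0 d, 64.5, 98.3 and 91.9 at 1 d, and 116, 141 and 121 at 4 d (1.65 ± 0.12, adjusted p = 0.00505). Ethylene response factor 23 (Cluster-16487.106007) had 37.9, 45.6 and 43.5, then 63.9, 73.1 and 79.6, then 101, 112 and 109 (1.27 ± 0.09, adjusted p = 0.00481). For both factors the levels of the 3 times were in order and did not overlap, and both calls were robust. An ERF5-like factor named after its values were seen (Cluster-16487.110522) rose by 2.08 ± 0.36, whereas ethylene response factor 25 (Cluster-16487.59419) fell by 1.23 on the log2 scale.

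Other transcription factors changed in small numbers. NAC factors had 7 of 129 up- and 4 down-regulated, the most abundant of each being NAC 80 (Cluster-16487.150169, 1.13 ± 0.1) and NAC 48 (Cluster-16487.118536, -0.5 ± 0.09). The only DEG among them was listed at 0 at 0 d and stayed below 1 FPKM. WRKY factors had 3 of 98 up- and 2 down-regulated, with the most abundant one lower (Cluster-16487.114717, -0.51 ± 0.1). MYB factors had 5 of 179 down-regulated (2.79%, against 2.09% over all seed-plant unigenes), among them the leaf-shape factor AS1 (Cluster-16487.92334, 46.4, 53.8 and 50 against 24, 25.4 and 24.9 FPKM, -1.09 ± 0.08), which was robust. None was up-regulated by edgeR, where 21 had an unadjusted p below 0.05 and DESeq2 called 14. MADS-box factors, which include regulators of flower and fruit identity, had 5 of 92 down- and 1 up-regulated: AGL6 (Cluster-16487.114520) went from 303, 221 and 244 to 90.8, 99 and 86.3 FPKM (-1.55 ± 0.16). Clock and light genes had 5 of 81 up- and 4 down-regulated, with a pseudo-response regulator type protein (Cluster-16487.50872) robust at 1.58 ± 0.1. Outside the lists, and chosen after their values were seen, the evening-complex factor LUX (Cluster-16487.105152) fell by 1.88 on the log2 scale and a WUSCHEL-related homeobox factor (Cluster-16487.123476) rose from 89.3, 84.5 and 94.6 to 227, 229 and 197 FPKM (1.22 ± 0.1). Both were robust.

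Among carotenoid enzymes 9 of 94 were up- and 1 down-regulated, 4 of 7 phytoene synthases and 4 of 11 beta-carotene hydroxylases among the former, and DESeq2 called 16 up and 5 down. With a library left out, between 0 and 4 were up-regulated, with 0 without CK 4 d A. Phytoene synthase (Cluster-16487.104729), the entry enzyme of the pathway, had FPKM of 28.4, 22 and 30.8 at 0 d, 19.9, 23.1 and 21.6 at 1 d, and 58.2, 53.7 and 53.6 at 4 d (0.95 ± 0.13). Beta-carotene hydroxylase (Cluster-16487.117266), which turns beta-carotene into xanthophylls, had 312, 406 and 419 at 0 d, 674, 713 and 637 at 1 d, and 835, 846 and 759 at 4 d (1.04 ± 0.11). The hydroxylase was thus higher at 1 d already and the synthase only at 4 d by level. Phytoene desaturase (Cluster-16487.110280), the next step after the synthase, fell slightly (-0.37 ± 0.07).

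Abscisic acid genes had 7 of 111 up-regulated, with a median of 0.23. None was down-regulated by edgeR, with 3 at an unadjusted p below 0.05 and 2 called by DESeq2. The members that rose belong to synthesis, breakdown and signalling alike, and those given here were named after their values were seen. 9-cis-epoxycarotenoid dioxygenase 1 (Cluster-16487.54813), the rate-limiting step of synthesis, went from 1.83, 2.02 and 3.2 to 6.33, 6.2 and 8.17 FPKM (1.48 ± 0.23), the breakdown enzyme abscisic acid 8'-hydroxylase (Cluster-16487.85570) changed by 0.99 ± 0.18, and a protein phosphatase 2C (Cluster-16487.12784), of a family that represses the response, by 1.93 ± 0.19. Ninja-family proteins, repressors of abscisic acid response factors picked from the counts of calls, had 5 of 13 up-regulated.

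Of 27 dehydrins and LEA proteins, which protect cell structures from water loss, 5 were up-regulated, with a median of 0.38. None was down-regulated by edgeR, with 1 at an unadjusted p below 0.05 and 1 called by DESeq2. A dehydrin DHN1 (Cluster-16487.170050) had FPKM of 3.31, 1.49 and 3.89 at 0 d, 76, 23.4 and 20.3 at 1 d, and 42.3, 36 and 16.6 at 4 d (3.36 ± 0.49). Embryonic protein DC-8 (Cluster-16487.197962), a LEA protein known from carrot embryos, had 0.19, 0.17 and 0 at 0 d, 1.17, 0 and 0.41 at 1 d, and 22.4, 25.5 and 24.4 at 4 d. It rose from 2 counts to 491, a ratio of 231 with a 95% counting interval from 63.6 to 1913, and was robust. The dehydrin was high from 1 d and DC-8 only at 4 d. This time course of DC-8 resembled that of the cork oak entries with a fungal Swiss-Prot hit, though its NR organism was a seed plant. Whether its transcript came from the fruit was not tested. An abscisic stress-ripening protein named after its values were seen (Cluster-16487.114655) rose from 142, 159 and 151 at 0 d to 365, 319 and 174 at 1 d and 291, 332 and 306 at 4 d (1 ± 0.09) and was robust. A shorter unigene of that name (Cluster-16487.130424) was listed at 0 in every 0 d library and had 40 counts at 4 d, at least 11.9-fold higher against a floor of 3 counts over the group.

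Dormancy-associated protein homolog 3, of a family of small proteins linked to growth arrest, was picked from the counts of calls. All 9 tested unigenes of that name were up-regulated, by 0.98 to 1.41 on the log2 scale, and some may be fragments of the same gene. Their summed FPKM was 8881, 8068 and 7881 at 0 d, 20349, 10773 and 14585 at 1 d, and 18340, 21573 and 15918 at 4 d. The 1 d libraries were spread over the range of the 4 d libraries and below it, and all were above those of 0 d. One unigene of this name (Cluster-16487.107685), named after its values were seen, had 2267, 1799 and 1851 at 0 d and 4503, 5044 and 3964 at 4 d (1.14 ± 0.15).

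DnaJ co-chaperones, which hand unfolded proteins to HSP70, had 15 of 43 members of the KEGG entry for subfamily A member 2 up-regulated, by 0.59 to 0.89, another group picked from the counts of calls. Their summed FPKM was 23145, 29104 and 26148 at 0 d, 30387, 35319 and 35854 at 1 d, and 45870, 45512 and 40466 at 4 d, without overlap among the 3 times. The list of large heat shock proteins and heat stress factors had 7 of 212 up- and 6 down-regulated, with a heat shock cognate 70 (Cluster-16487.109609) at 0.83 ± 0.13 and the luminal-binding protein 5 (Cluster-16487.91828), an HSP70 of the endoplasmic reticulum, at -0.61 ± 0.1. Over all green-plant entries it had 18 of 227 up- and 6 down-regulated. Small heat shock proteins had 2 of 57 up- and 3 down-regulated. The peroxisomal 15.7 kDa form (Cluster-16487.126469) rose by 0.79 ± 0.15 and a cytosolic 17.5 kDa form (Cluster-16487.97547) went from 98, 124 and 94.2 to 50.7, 57.1 and 53.4 FPKM (-1.04 ± 0.13).

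Lignin enzymes had 14 of 107 up- and 2 down-regulated, and 11 of the 14 were laccases, copper oxidases that couple phenolics in the wall. Of 34 laccases tested, 1 was down-regulated. Their summed FPKM was 9071, 7012 and 8501 at 0 d, 9689, 10840 and 10899 at 1 d, and 14794, 13216 and 14522 at 4 d, with no overlap among the 3 times. A laccase-like protein (Cluster-16487.114825) rose from 958, 670 and 813 to 1516, 1334 and 1533 FPKM (0.79 ± 0.15). No single laccase call was kept in all 6 fits with a library left out, and the list had between 0 and 11 up-regulated in them, with 0 without CK 4 d A. Class III peroxidases, which also couple phenolics, had 4 of 34 up- and 5 down-regulated: a peroxidase (Cluster-16487.133106) rose from 4.23, 4.91 and 11.5 to 41.5, 38.1 and 38.2 FPKM (2.45 ± 0.38) and the most abundant one (Cluster-16487.109945) fell by 0.55 on the log2 scale. The other 4 that fell were DEGs of low level, below 10 FPKM in each of the 6 libraries, and the one named here was the only DEG up.

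Flavonoid and tannin enzymes, which make the tannins of astringent flesh, had 5 of 49 down- and 1 up-regulated, with a median of -0.44. Flavanone 3-hydroxylase (Cluster-16487.140083) went from 79.3, 65.4 and 77.2 to 39.6, 40 and 37.6 FPKM (-1 ± 0.1), and 4-coumarate-CoA ligase 2 (Cluster-16487.117861), an early step shared with lignin, from 35.8, 38.4 and 38.5 to 19.1, 20 and 20.8 (-0.99 ± 0.07). The ligase was robust. The member that rose was a phenylalanine ammonia-lyase of low level (Cluster-16487.74304, 1.12 ± 0.21).

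**Figure D5:**
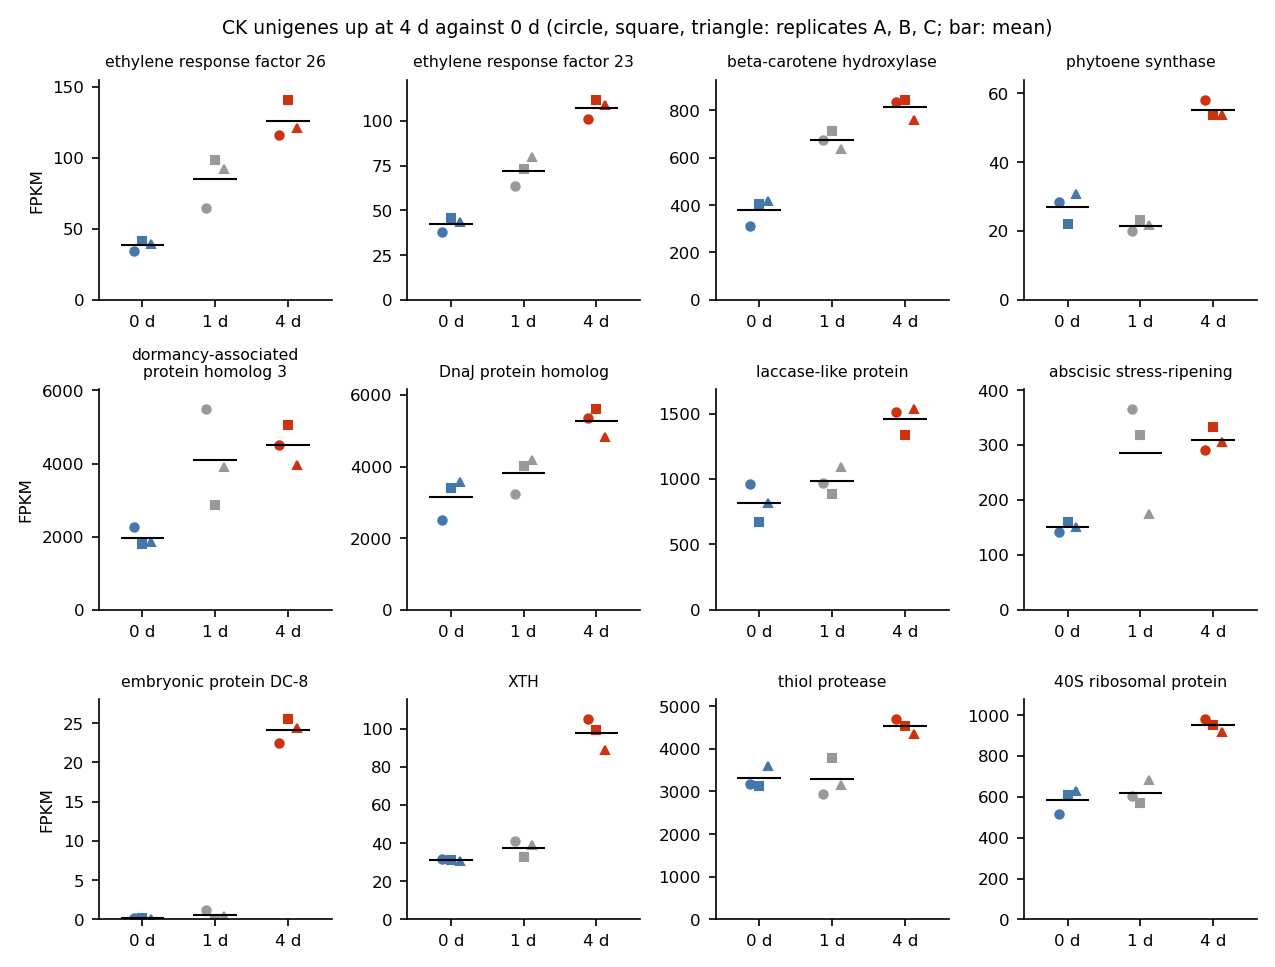
FPKM (y axis, a separate scale for each panel, from 0) of 12 up-regulated unigenes in each control library at 0, 1 and 4 d in storage (x axis); circles, squares and triangles are replicates A, B and C and bars are means. In each panel the 4 d libraries lie above every 0 d library; for the ethylene response factors the 1 d libraries lie between, and for phytoene synthase (19.9 to 23.1 at 1 d) and DC-8 (at most 1.17 at 1 d) they are near those of 0 d.

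Auxin response genes had 8 of 182 down- and 4 up-regulated, with a median of -0.02. Those that fell included an auxin response factor (Cluster-16487.111365) at 57, 63.8 and 82.1 against 27.1, 22.4 and 31 FPKM (-1.41 ± 0.15). The 4 that rose were annotated as auxin-responsive, SAUR or auxin-induced proteins, and of 22 unigenes with the KEGG entry for the SAUR family, small growth-related proteins induced by auxin, 4 were up- and 1 down-regulated. Of 16 unigenes for IAA-amino acid hydrolase, which frees auxin from its conjugates, 7 were down-regulated, a group picked from the counts of calls. Gibberellin genes had 5 of 31 down- and 1 up-regulated. Gibberellin-regulated protein 10 (Cluster-16487.104166), a secreted cysteine-rich peptide, went from 127, 95.3 and 94.8 at 0 d to 20.6, 16.8 and 20.9 at 4 d (-2.49 ± 0.19) and was robust, and the receptor GID1B (Cluster-16487.97770) changed by -0.61 ± 0.08. The member that rose, a DELLA protein (Cluster-16487.141635), was listed at 0 in all 0 d libraries and at 1.67, 0.91 and 0.42 at 4 d. In the lipoxygenase and jasmonate pathway 4 of 71 were down-regulated, among them a 13S-lipoxygenase (Cluster-16487.85307, -1.19 ± 0.14). None was up-regulated by edgeR, with 11 at an unadjusted p below 0.05 and 5 called by DESeq2.

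Cysteine proteases and senescence proteins had 5 of 85 up- and 2 down-regulated. The thiol protease with the highest level (Cluster-16487.111897) had 3183, 3138 and 3598 FPKM at 0 d and 4696, 4544 and 4342 at 4 d (0.43 ± 0.08). Of 8 unigenes of the cathepsin H entry, lysosome-type proteases picked from the counts of calls, 4 rose. Of the 15 seed-plant ribosomal proteins that rose, 6 were DEGs, and a 40S protein with a smaller change (Cluster-16487.120533) went from 515, 608 and 626 to 980, 952 and 919 FPKM (0.67 ± 0.08). None fell by edgeR or DESeq2, with 3 lower at an unadjusted p below 0.05. Over all NR green-plant entries the ribosomal list had 138 of 524 up- and 7 down-regulated and histones, the proteins that package DNA, 11 of 81 up-regulated, against 2 of 67 among seed plants. Antioxidant enzymes had 2 of 75 up- and 4 down-regulated, with 9 of 89 up when all green-plant entries were counted. Glutathione S-transferases, which conjugate toxic compounds, had 4 of 135 up (2.96%) and 1 down (0.741%), against 1.77% and 2.09% over all seed-plant unigenes. The wider counts include the cork oak, seedless-plant and fungal entries.

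Photosystem and chlorophyll-binding proteins had 2 of 50 up- and 1 down-regulated, with an oxygen-evolving enhancer protein (Cluster-16487.107008) robust at 1.22 ± 0.1. Its FPKM was 18.5, 19.4 and 19.5 at 0 d, 110, 45 and 77.6 at 1 d, and 46.2, 50.8 and 43 at 4 d. By mean it was highest at 1 d, but the 1 d and 4 d libraries overlapped. Metallothioneins, metal-binding peptides, had 3 of 10 down-regulated, the highest share of decreases among the 44 lists (30%) but on few members, and none of the 3 calls was made with any library left out. One was a type 2 form (Cluster-16487.110824) at -1.06 ± 0.14. GABA and alanine genes had 2 of 30 up and 2 down, with the most abundant glutamate decarboxylase (Cluster-16487.98703) at -0.36 ± 0.06. Cyclins and tubulins had 2 of 121 up (1.65%) and 3 down (2.48%), near the 1.77% and 2.09% over all seed-plant unigenes. Of 131 reference-type genes, such as actins and elongation factors, 6 were up- and 2 down-regulated, and an elongation factor 1-alpha (Cluster-16487.125160) rose by 0.45 ± 0.07, from 2235, 2075 and 2292 to 2997, 2978 and 3114 FPKM. No seed storage unigene passed with edgeR or DESeq2, and 1 of the 7 had an unadjusted p below 0.05.

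Some unigenes with large changes were chosen after their values were seen. Of the unigenes annotated as UTP:RNA uridylyltransferase, an enzyme that adds uridine tails to RNA, one (Cluster-16487.92718) had FPKM of 0, 0.01 and 0 at 0 d, 0.08, 0 and 0.03 at 1 d, and 7.58, 6.17 and 6.11 at 4 d. The other (Cluster-16487.121379) had 5.97, 3.83 and 5.5 at 0 d, 7.5, 5.52 and 6.28 at 1 d, and 0.04, 0.01 and 0.09 at 4 d. Each was near 0 in the libraries where the other was expressed, and both calls were robust. Counts went from 1 to 1458 for the first, a ratio of 1372 with a 95% counting interval from 246 to 54231, and from 1067 to 12 for the second. Whether they are forms of one gene was not tested. Cyclin-U1-1 (Cluster-16487.169929), a cyclin of the P type, had 0.9, 1.45 and 1.37 FPKM at 0 d, 40.1, 14.1 and 5.81 at 1 d, and 17.1, 20.8 and 16.2 at 4 d (3.76 ± 0.23). A WAT1-related protein (Cluster-16487.161932), of a family of vacuolar transporters, went from 3.63, 2.77 and 4.85 to 28.6, 26.3 and 20.6 FPKM (2.67 ± 0.23). Both were robust.

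Of 10184 tested unigenes without an NR hit, 249 were up-regulated (2.45%) and 102 down-regulated (1%). The up-regulated one with the highest level (Cluster-16487.208617), which carries a Pfam match to fungal mating-type pheromones, had 1.01, 0.9 and 1.28 FPKM at 0 d, 0.87, 0 and 2.05 at 1 d, and 99.7, 85.1 and 93.4 at 4 d. It changed by 6.28 ± 0.27 (adjusted p = 0.00269), on 4 counts at 0 d and 376 at 4 d, and was robust. The down-regulated one with the highest level (Cluster-16487.142800) had 221, 600 and 599 at 0 d and 60.5, 112 and 112 at 4 d (-2.37 ± 0.43).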

How the data were processed

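RNA of the flesh was sequenced by the authors and assembled with Trinity, and unigenes were annotated against NR, Swiss-Prot, Pfam and KEGG orthology. For each library the authors deposited expected counts per unigene, not normalized, and FPKM, normalized for length and depth; per the labels, RSEM was among the tools used, with the version not given in the sources used here. In the 6 libraries 30.8% to 37.2% of all count values, zeros included, had a remainder at 2 decimals, and all were rounded to whole numbers.

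The members and gene lists were chosen with earlier results of these data known. Each NR organism was classed by genus. The counts were filtered with filterByExpr, scaled by TMM and tested by the quasi-likelihood F test of edgeR 4.0.16 (R 4.3.3), 3 libraries against 3, with no covariate and Benjamini-Hochberg adjustment over all 62794 unigenes. The labels do not say that replicates came from separate fruit lots, so p-values measure the spread between these libraries. Standard errors were derived from the fold change and F statistic. For a unigene at 0 in a group, a floor of 3 counts over the group was used. Intervals and floors cover counting error only. The tests were tried on simulated counts. Python 3.11.15 with pandas 2.3.3, scipy 1.17.1 and matplotlib 3.10.9 served for tables and plots.

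Unigenes were named by a rule. Per direction it took the 10 largest changes among DEGs of at least 20 FPKM without overlap, and the 5 most abundant called unigenes. Per list it took the most abundant member and the 2 most abundant called members per direction. It took the 3 most abundant non-plant DEGs and 1 without an NR hit. The rule was repeated for seed plants after the values had been seen, and groups counted by KEGG, Pfam or NR name were picked from the calls. Alternatives tried were another tool (DESeq2 1.42.0), scaling by relative log expression, testing without the filter, fitting all control or all libraries together, a block for the replicate letter, testing against 5-fold instead of no change, a 2-fold threshold, sums over NR descriptions, a length correction, non-plant unigenes left out and each library left out. Leaving out doubtful organisms (cork oak, seedless plants and fungal Swiss-Prot entries as well) was chosen after seeing the data.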

Additional observations from a re-analysis of the deposited data

How the results depend on the processing

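The 2924 calls kept their direction under every alternative that tested them. Each alternative reused all or all but 1 of the libraries that gave the calls, so this was nearly fixed in advance. The share of counts in non-plant unigenes was higher at 4 d under each alternative tried for it. The difference was 0.0184 to 0.0211 percentage points over the leave-outs, 0.0152 in FPKM, 0.0179 with unclassified organisms added and 0.181 with fungal entries added. The counts of calls depended on the setting. DESeq2 gave 3926 up, 3384 down and 332 DEGs down. All 7 groups in one fit gave 557 up, 198 down and 510 and 83 DEGs, with 73.8% of calls up instead of 59.2%. The 9 control libraries in one fit gave 570 DEGs up and 121 down. The test against a 5-fold change gave 11 up and 0 down (1125 at an unadjusted p below 0.05), the 2-fold threshold 664 DEGs down, and sums over NR descriptions 79 DEGs down. Leaving out doubtful organisms gave 963 up and 250 DEGs up. With 1 library left out the ranges were 113 to 697 up, 72 to 429 down, 65 to 432 DEGs up and 24 to 83 DEGs down. No named unigene reversed, and 96 of 660 list medians moved by more than the spread between replicates.

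With the replicate letter as a block, edgeR called 0 up, 0 down, 0 DEGs up and 0 DEGs down, while 9815 unigenes had an unadjusted p below 0.05. The block also lowers the residual degrees of freedom, so lost power and a batch effect cannot be told apart here. The deviations of same-letter libraries correlated at 0.0137 (A), 0.0308 (B) and 0.0563 (C). Each library correlated best with its own letter, a hint from the data, but none exceeded 0.1, and the letters were not taken as pairs. Deviations were taken from the mean of only 3 libraries per group, so these values are weak evidence either way.

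Depth limits the low unigenes: 74 of the 147 seed-plant DEGs up were listed at 0 in a group, and each value rests on 3 libraries per group.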
